A study of Homo sapiens with 3 samples.

Results

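The DNAJ genes encode the J-domain proteins, the co-chaperones of the HSP70 chaperones. All genes whose symbol in the deposited files begins with DNAJA, DNAJB or DNAJC and a number were taken, which gave 44 of the 22894 genes of the series, namely 4 of class A, 13 of class B and 27 of class C. The choice used names and no measured value. Of the 44, 43 are protein-coding, and DNAJB3 is listed as a transcribed pseudogene in the RefSeq gene table. The gene DNAJC25 did not match, because its records stand under the symbol GNG10 (693, 815 and 679 counts in replicates 1, 2 and 3) or under an accession alone (760, 894 and 745 counts).

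RNA was sequenced from 3 libraries of MDA-MB-231, a human breast cancer cell line with a mesenchymal phenotype. All cells received a control siRNA (siCTRL) at 50 nM with a lipid reagent, 2 times with 24 h between, and were harvested 48 h after the second transfection. The labels call the libraries biological replicates of 1 line, and p-values measure only the spread between these 3 libraries. Cells given a targeting siRNA are not analysed here, so there is no contrast between treatments, and the results below are the levels of the DNAJ genes in transfected control cells and their spread (n = 3).

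A J domain binds an HSP70 protein and stimulates its ATPase, which closes HSP70 on its substrate. The other domains of the co-chaperone bring the substrate or place HSP70 at a site in the cell. Class A proteins carry the J domain, a glycine and phenylalanine-rich stretch and a zinc-finger region, class B proteins lack the zinc finger, and class C proteins share only the J domain. The cytosol, the endoplasmic reticulum (ER) and mitochondria each have HSP70 proteins with J-domain partners of their own.

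The counts summed over genes ranged from 54655985 to 85103776 per library. Both mates of a read pair appear to be counted, since genes with 2 counts outnumbered those with 1 count in each library (717 against 487 in replicate 1). Levels are given in TPM (counts divided by transcript length and scaled to the same total in each library), so that genes of different length can be set side by side. Among 11 markers of cell types, the mesenchymal VIM stood at 4536 ± 159 TPM, while the epithelial cadherin CDH1 (0.602 ± 0.228 TPM), the oestrogen receptor ESR1 (0.012 ± 0.005 TPM) and the leukocyte gene PTPRC (0.511 ± 0.214 TPM) did not reach 1 CPM (counts relative to the size of the library) in every library, and the fibroblast gene DCN had 0 counts. Other markers of the list were detected, with the epithelial KRT8 at 744 ± 40.3 TPM and EPCAM at 17.6 ± 1.23 TPM, the receptor gene ERBB2 at 28.7 ± 1.66 TPM, the fibroblast-type collagen COL1A1 at 6.35 ± 0.778 TPM and the endothelial PECAM1 at 1.06 ± 0.177 TPM. Thus 6 of the 11 markers were detected, and the epithelial ones did not go one way.

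Most DNAJ genes were transcribed. Of the 44, 35 (79.5%) reached 1 CPM in each library, beside 55.6% of all genes of the series. The genes of the series include noncoding ones such as DNAJC9-AS1, while 43 of the 44 members are protein-coding, so the bases are unlike. The 35 comprised 3 of 4 class A, 9 of 13 class B and 23 of 27 class C genes. Of the 35 detected members, 18 lay above the median detected gene of the series, 9 above the 75th percentile of detected genes and 5 above the 90th. The shares above the median and the 75th percentile were thus near those of all detected genes, which these cuts fix. The summed level of the protein-coding members was 1894 ± 55.4 TPM, and 5 genes carried 52.8 ± 0.574% of it (DNAJA1, DNAJC8, DNAJB1, DNAJB6 and DNAJC7). The 10 highest members carried 74.6 ± 0.313%.

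**Figure D1:**
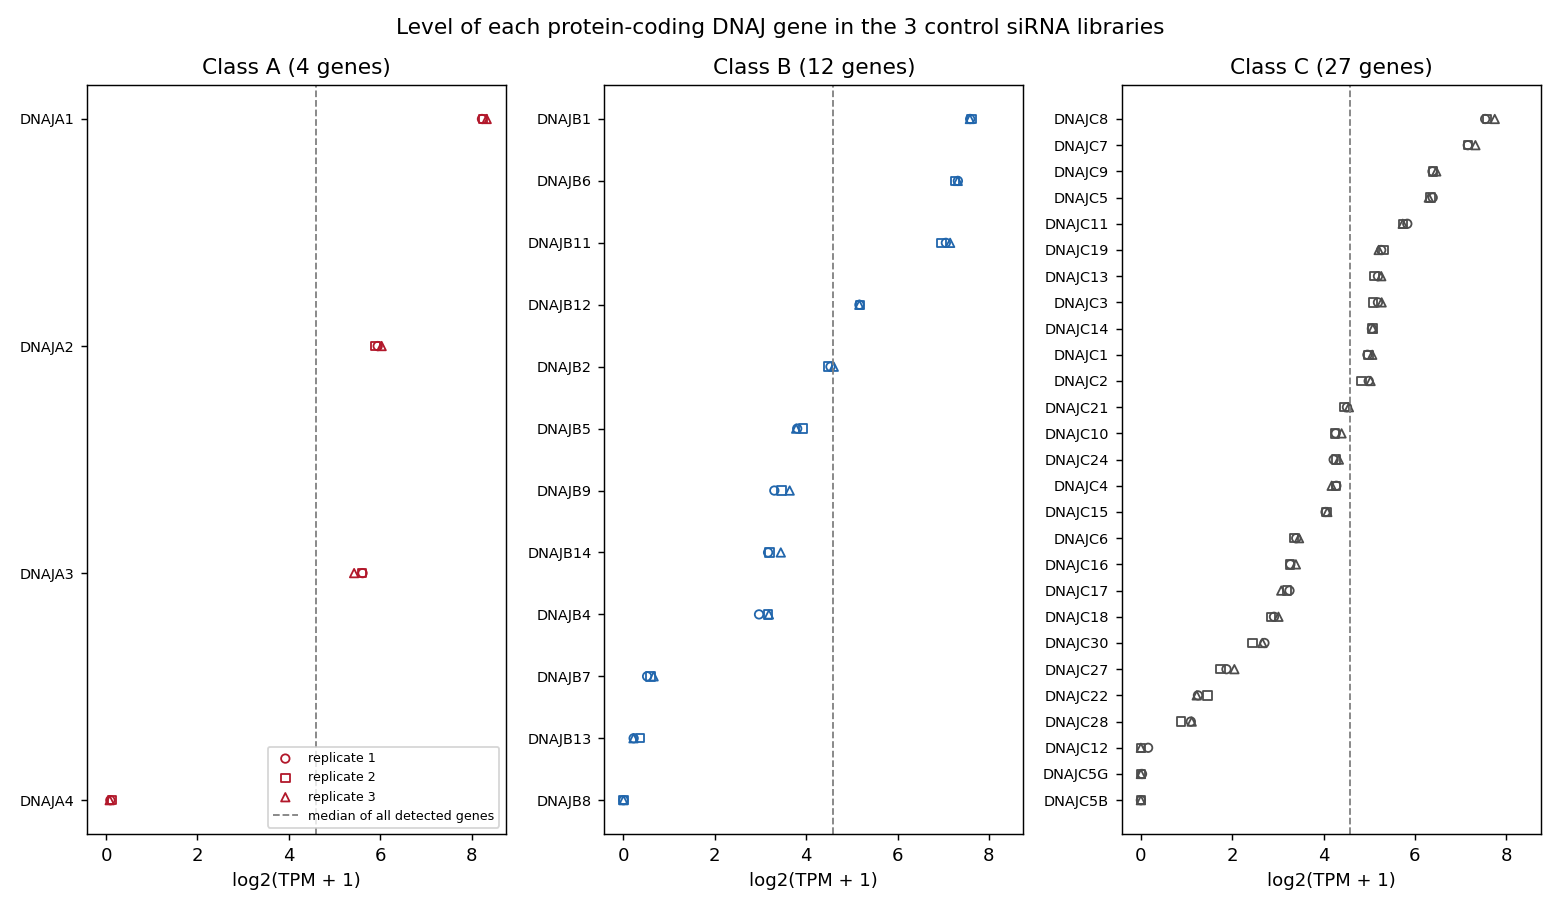
Level of each of the 43 protein-coding DNAJ genes as log2(TPM + 1), with 1 symbol per control siRNA library, in 3 panels for classes A, B and C. The dashed line is the median of all detected genes; DNAJA1 is the highest gene at 308 TPM, and DNAJA4 lies near 0 as the lowest of its class.

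In class A, 1 gene stood far above its relatives. DNAJA1, the main class A partner of cytosolic HSP70, had 299, 303 and 321 TPM in replicates 1, 2 and 3, a mean of 308 ± 11.7 TPM, and was the highest DNAJ gene. DNAJA2, a second cytosolic partner, had 60.7, 58.8 and 64.4 TPM. DNAJA3, the class A protein of the mitochondrial matrix, had 48.0, 47.5 and 42.1 TPM. The ranges of these 3 genes did not overlap. DNAJA4, which is close to DNAJA1 in sequence, had 6, 11 and 4 counts, or 0.067, 0.098 and 0.056 TPM, and was not detected.

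In class B, DNAJB1, the classic heat-inducible co-chaperone that works with HSP70 in disaggregation, had 192, 196 and 191 TPM (193 ± 2.48). DNAJB6, which keeps polyglutamine and amyloid proteins from aggregating, had 159, 153 and 159 TPM (157 ± 3.53). DNAJB11, a partner of the ER chaperone BiP, had 132, 124 and 141 TPM. These 3 genes stood apart from the other class B genes, of which DNAJB12 was next at 35.0 ± 0.263 TPM. The lowest detected class B gene was DNAJB4 with 6.82, 7.94 and 8.08 TPM.

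In class C, DNAJC8, a protein bound to the spliceosome, had 185, 189.9 and 214 TPM (196 ± 15.5). DNAJC7, a cytosolic protein with tetratricopeptide repeats that binds both HSP70 and HSP90, had 142, 142 and 159 TPM (148 ± 10.1). DNAJC9, a histone chaperone that brings HSP70 to histones, had 82.5, 83.0 and 87.4 TPM. The range of DNAJC8 enclosed that of DNAJB1, and the range of DNAJC7 overlapped that of DNAJB6, so the order within these pairs does not hold beyond their spread. The lowest detected class C gene was DNAJC22, whose role in human cells is little known, with 1.38, 1.76 and 1.33 TPM.

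Promoter windows from RefSeq (GRCh38.p14, 250 bases before to 50 after the gene start, 300 bases) were found for 39 of the 43 protein-coding members and were searched for the heat shock element, the site of the heat shock factors. The 2-unit form was GAANNTTC or TTCNNGAA, and the 3-unit form was GAANNTTCNNGAA or TTCNNGAANNTTC, which always contains overlapping 2-unit matches. Both strands were read. The windows of DNAJA1 and DNAJB6 are shown because they hold the 3-unit form, and that of DNAJA4 because this close relative of DNAJA1 was not detected and holds no match. Capitals mark 2-unit or 3-unit matches, the gene is on the plus strand in each case, and the windows are chr9:33025023-33025322 for DNAJA1, chr7:157336754-157337053 for DNAJB6 and chr15:78263895-78264194 for DNAJA4.
DNAJA1: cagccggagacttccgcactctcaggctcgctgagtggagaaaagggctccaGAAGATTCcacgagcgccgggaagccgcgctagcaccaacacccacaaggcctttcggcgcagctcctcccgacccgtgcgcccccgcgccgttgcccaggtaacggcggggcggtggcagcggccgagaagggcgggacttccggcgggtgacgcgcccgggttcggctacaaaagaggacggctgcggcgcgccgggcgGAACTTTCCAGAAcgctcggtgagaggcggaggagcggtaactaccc
DNAJB6: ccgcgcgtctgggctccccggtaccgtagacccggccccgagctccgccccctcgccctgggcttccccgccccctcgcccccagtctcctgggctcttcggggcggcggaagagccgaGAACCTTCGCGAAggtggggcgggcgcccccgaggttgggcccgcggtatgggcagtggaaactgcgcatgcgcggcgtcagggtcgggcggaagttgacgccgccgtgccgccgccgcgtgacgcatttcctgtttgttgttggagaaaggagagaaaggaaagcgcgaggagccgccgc
DNAJA4: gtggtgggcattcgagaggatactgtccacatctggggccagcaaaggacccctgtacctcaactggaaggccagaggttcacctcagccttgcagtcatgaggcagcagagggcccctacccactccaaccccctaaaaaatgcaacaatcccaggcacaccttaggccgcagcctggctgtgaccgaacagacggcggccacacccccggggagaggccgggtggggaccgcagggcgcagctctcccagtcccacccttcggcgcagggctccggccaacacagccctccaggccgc

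The 3-unit element was present in 2 of the 39 windows (5.13%), those of DNAJA1 and DNAJB6, beside 58 of 15843 protein-coding promoters (0.366%). In DNAJA1 it was GAACTTTCCAGAA, at bases 4 to 16 after the start. In DNAJB6 it was GAACCTTCGCGAA, from 131 to 119 bases before the start. The 2-unit form was present in 4 windows (10.3%), those of DNAJA1, DNAJB6, DNAJB7 and DNAJC15, beside 11.4% of protein-coding promoters. Of these 4, DNAJB7 was not detected, while 29 detected members, DNAJB1 among them, held no 2-unit match. A link between the element and the level was not tested. The ER stress element (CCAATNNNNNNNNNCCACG, both strands) and ER stress element II (ATTGGNCCACG, both strands), which are sites of ATF6 and XBP1 and contain the CCAAT box, were matched in 0 members, beside 0.12% and 0.0757% of protein-coding promoters. The CCAAT box itself, read on both strands, was present in 17 members (43.6%), beside 36.4%. A match is a string of letters and not a measured binding site, and no match says only that the letters are not in this window.

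Across the classes, the median level was 53.6 ± 0.632 TPM in class A, 11.7 ± 0.681 in class B and 18.6 ± 0.537 in class C, with undetected protein-coding genes included. On the scale log2(TPM + 1), the median of class A exceeded that of class B by 2.10 ± 0.11 and that of class C by 1.47 ± 0.06 (mean and SD of the difference in 3 libraries). Both differences were positive in 3 of 3 libraries and under each of the alternatives tried, but class A consists of 4 genes. Class B lay 0.64 below class C (−0.64 ± 0.07), and this order did not hold. It was 0.14 when the coding length replaced the transcript length, 0.08 when counts were summed over records and 0.03 over the detected members alone. Genes are not replicates of a class, so no p is given.

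By the main compartment of the protein, 16 protein-coding members were placed in the cytosol, 3 in the nucleus, 10 in the ER, 5 in mitochondria, 5 on vesicles or endosomes and 1 in cilia, and 3 were not assigned. All 10 ER, 5 mitochondrial and 3 nuclear genes were detected, as were 12 of 16 cytosolic and 3 of 5 vesicle genes. Summed levels were 983 ± 28.4 TPM for the cytosol, 319 ± 15.7 for the ER, 288 ± 17.7 for the nucleus, 157 ± 5.54 for mitochondria and 125 ± 2.55 for vesicles.

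**Figure D2:**
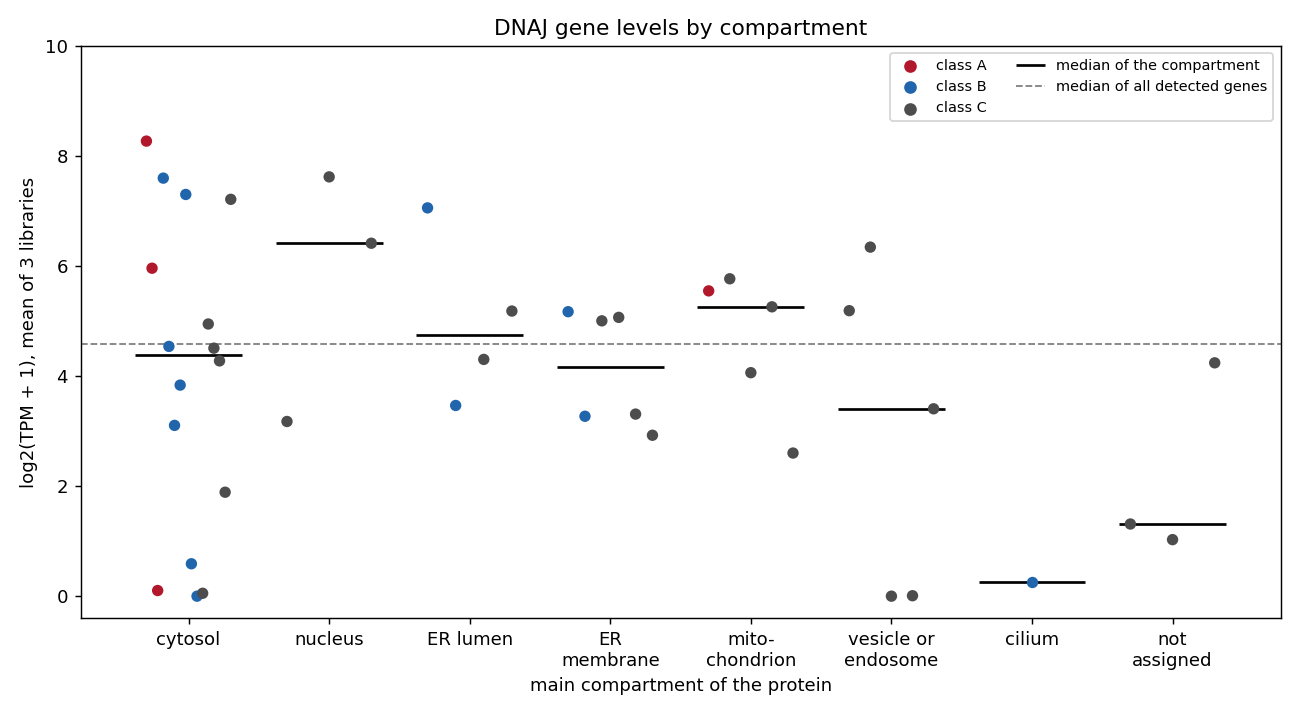
Mean log2(TPM + 1) over the 3 control siRNA libraries for each protein-coding DNAJ gene, by compartment and coloured by class, with the median of each compartment as a bar. The cytosol holds both the highest gene, DNAJA1, and genes at or near 0, while every ER and mitochondrial gene was detected.

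The cytosolic genes ranged most widely. DNAJA1, DNAJB1, DNAJB6 and DNAJC7 made up its top, followed by DNAJA2. DNAJB6 is counted here by its gene, at 157 TPM of the cytosolic sum, although its larger record is that of the form known to enter the nucleus. DNAJC2, which sits at the ribosome exit and also acts on chromatin, had 30.7, 27.3 and 31.6 TPM. DNAJB2, a chaperone enriched in neurons, had 22.1, 21.4 and 23.3 TPM, and DNAJC21, a factor of ribosome assembly, had 21.8, 20.9 and 22.5 TPM. DNAJC24, an enzyme cofactor in diphthamide synthesis, stood at 18.4 ± 0.769 TPM and DNAJB5, a relative of DNAJB1, at 13.3 ± 0.781 TPM. The lowest detected cytosolic gene was DNAJC27, a small GTPase with a J domain, with 2.66, 2.36 and 3.13 TPM.

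In the nucleus, DNAJC8 carried 67.9% of the summed level, followed by DNAJC9. DNAJC17, a splicing-associated protein, had 8.53, 8.18 and 7.41 TPM, far below both.

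In the ER lumen, DNAJB11 carried 67.3% of the summed level of 4 genes. DNAJC3, an inhibitor of the stress kinases PERK and PKR that also binds unfolded proteins, had 35.5, 32.9 and 37.6 TPM. DNAJC10, a disulfide reductase that prepares misfolded proteins for export, had 18.2, 18.0 and 20.0 TPM. DNAJB9, a repressor of the stress sensor IRE1, had 8.86, 9.98 and 11.5 TPM. The value of DNAJC10 depends on length more than most, since its reference transcript measures 20129 bases and its coding part 2379 bases. By coding length it stood at 72.8 ± 3.88 TPM and ranked 10 among the members, against rank 21 by transcript length.

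The 6 genes of the ER membrane lay lower and closer together. DNAJB12, which serves degradation of membrane proteins, had 34.9, 35.3 and 34.8 TPM. DNAJC14, which assists export of receptors, had 32.3, 32.5 and 32.7 TPM, and DNAJC1, which recruits BiP to the translocon, had 30.1, 30.7 and 32.5 TPM. DNAJC16 stood at 8.92 ± 0.51 TPM. DNAJB14, a relative of DNAJB12, had 7.97, 8.19 and 9.88 TPM and was highest in replicate 3. DNAJC18 was lowest with 6.54, 6.20 and 7.06 TPM. The ranges of DNAJC14 and DNAJC1 overlapped.

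In mitochondria, DNAJC11, an outer membrane protein of the cristae-organising complex, had 56.0, 52.4 and 52.2 TPM, above DNAJA3. DNAJC19, a subunit of the import motor, had 37.3, 38.6 and 35.9 TPM. DNAJC15, a relative of DNAJC19 that restrains respiration, had 15.5, 15.7 and 15.9 TPM, and DNAJC30, a protein tied to the respiratory chain, was lowest with 5.52, 4.42 and 5.32 TPM. The median of the mitochondrial genes exceeded that of the cytosolic genes by 0.87 ± 0.09 on the scale log2(TPM + 1), and the ER genes exceeded the cytosolic genes by 0.26 ± 0.02. The ER order did not hold. It was −0.05 by coding length, −0.69 with counts summed over records and −0.09 over the detected members alone. The mitochondrial difference stayed positive under each alternative, from 0.40 to 1.26.

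On vesicles, DNAJC5, the cysteine-string protein of secretory vesicles, had 82.8, 79.9 and 78.0 TPM. DNAJC13, which acts on endosomes, had 35.5, 33.6 and 37.4 TPM, and DNAJC6, the auxilin that uncoats clathrin in neurons, had 9.57, 9.21 and 10.0 TPM. GAK, the widely expressed auxilin outside the DNAJ names, stood at 28.6 ± 1.24 TPM. By coding length, DNAJC5 was the highest member of all at 323 ± 11.1 TPM, since its transcript of 5213 bases has only 594 coding bases, and DNAJA1 followed at 282 ± 9.46 TPM. DNAJC4, whose place in the cell was not assigned, had 18.4, 18.3 and 17.1 TPM.

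The choice of length changed several ranks. The counts are of whole transcript records, so division by coding length alone raises genes with long untranslated parts relative to others. The transcript was over 4 times as long as its coding part in 11 detected members, and the median ratio over the detected members was 2.96. DNAJC15, with 7853 bases of transcript and 450 of coding sequence, ranked 24 by transcript length and 7 by coding length (126 ± 1.23 TPM). DNAJA1, DNAJC8, DNAJB1 and DNAJB6 stayed among the 5 highest under both.

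The 9 members that were not detected included 3 with 0 counts in all libraries. These were DNAJB8, a suppressor of aggregation known from testis, DNAJC5B, a relative of DNAJC5, and the pseudogene DNAJB3. A count of 0 allows a level of up to 0.0876, 0.0706 and 0.109 CPM in replicates 1, 2 and 3 (3 read pairs with both mates counted, or 6 counts), for counting error only. DNAJC5G, another relative of DNAJC5, had 1, 0 and 0 counts, and DNAJC12, a co-chaperone of aromatic amino acid hydroxylases, had 4, 0 and 0. DNAJB13, a protein of motile cilia and sperm tails, had 9, 19 and 7 counts. DNAJB7 had 32, 47 and 34 counts and lies within XPNPEP3 on the opposite strand, and DNAJC28 had 53, 49 and 43 counts.

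Related genes differed widely in level, as the plot of relatives shows. DNAJA1 held 83.4 ± 0.318% of the summed TPM of DNAJA1, DNAJA2 and DNAJA4. DNAJB1 held 90.2 ± 0.41% of that of DNAJB1, DNAJB4 and DNAJB5. DNAJB6 held 87.3 ± 0.357% of that of DNAJB6, DNAJB2, DNAJB7 and DNAJB8, and DNAJC5 held 100.0% of its family in replicates 2 and 3. In these 4 families the same gene led by coding length, where DNAJA1 held 79.9%, DNAJB1 90.04% and DNAJB6 84.5%. DNAJB12 held 69.6 ± 2.07% of the sum with DNAJB14 and DNAJC18.

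The mitochondrial pair was the exception. DNAJC19 held 70.4 ± 0.967% of the sum with DNAJC15 by transcript length, but 36.3 ± 1.06% by coding length and 30.5% of the CPM. Which of the 2 is higher therefore depends on the length used. These families were put together with the levels known, and the shares are descriptions.

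**Figure D3:**
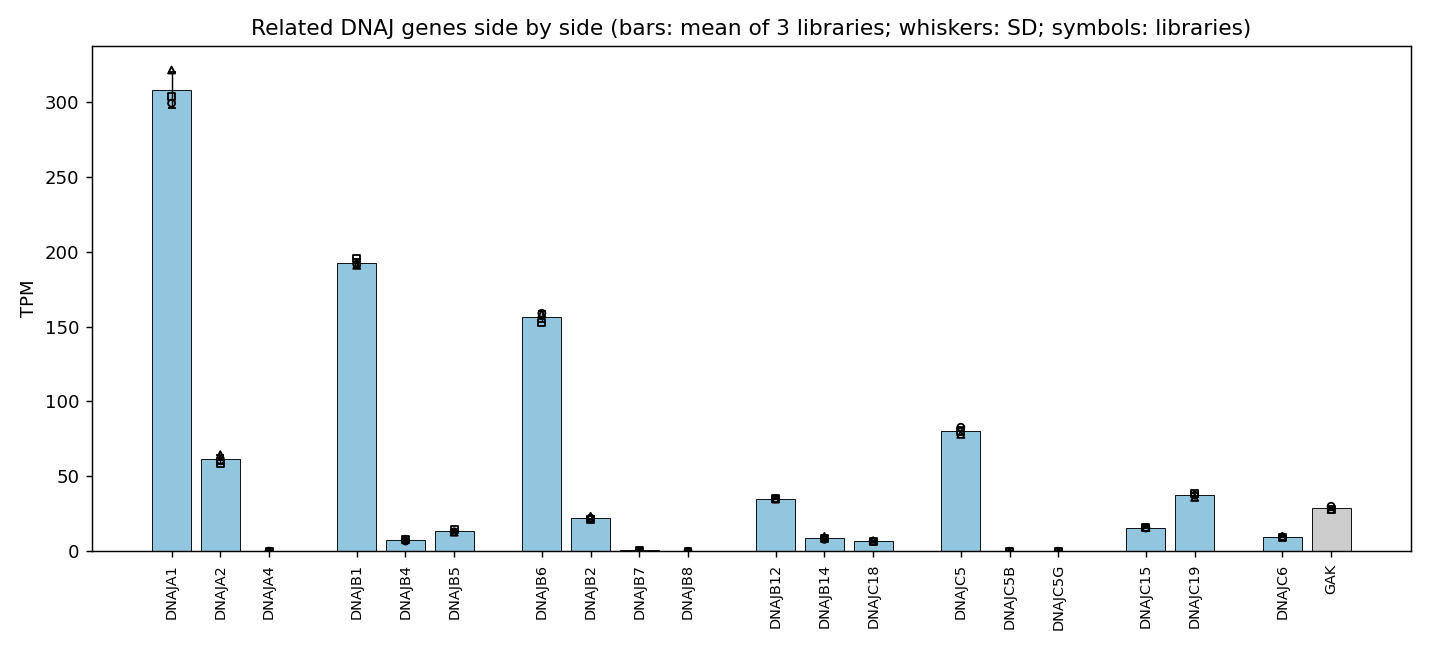
TPM of related DNAJ genes, with GAK in grey as the relative of DNAJC6; bars are means over 3 control siRNA libraries, whiskers SD and symbols the libraries. DNAJA1, DNAJB1, DNAJB6 and DNAJC5 stand far above their relatives, and DNAJA4, DNAJB7, DNAJB8, DNAJC5B and DNAJC5G lie at or near 0.

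Of the 44 members, 30 have 1 record under their symbol in the files and 14 have several. In 11 genes with several records, the median ratio of the lowest to the highest record was 0.958 in replicate 1. Among detected members, DNAJB6 departed most from equality over records that carry the gene's symbol. Its longer record (978 coding bases, the form known to enter the nucleus) had 11563, 13891 and 9124 counts, and its shorter record (723 coding bases, the mainly cytosolic form) had 8102, 9911 and 6587 counts. The ratio of the shorter to the longer record was 0.701, 0.713 and 0.722. DNAJB2 had its shorter record (831 coding bases) at 0.836, 0.837 and 0.834 of its longer one (972 coding bases). DNAJC19 has further records matched by accession alone, the lowest with 838, 1090 and 658 counts, against 1564, 2024 and 1189 counts in its largest record. Reads in shared exons appear in both records, so these ratios are not shares of the forms.

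DNAJ transcripts were set beside those of the HSP70 genes listed for the same compartment. The DNAJ transcripts summed to less in each compartment when the largest record and its transcript length were used. Genes were placed by main compartment and not by the side of a membrane that the J domain faces. A DNAJ gene may therefore work with an HSP70 of another compartment. DNAJC11, an outer membrane protein, made up 34.0% of the mitochondrial sum. Nuclear and vesicle genes are in none of the sums. In the cytosol, 16 DNAJ genes summed to 967, 965 and 1015 TPM, against 1921, 1877 and 1889 TPM for 7 HSP70 genes, a ratio of 0.518 ± 0.0173. HSPA8, the constitutive HSP70, alone had 1582 ± 19.0 TPM. In the ER, 10 DNAJ genes summed to 315, 306 and 337 TPM, against 548, 549 and 578 TPM for HSPA5 (BiP) and HSPA13, a ratio of 0.572 ± 0.0127. In mitochondria, 5 DNAJ genes summed to 162, 159 and 151 TPM, against 218, 213 and 228 TPM for HSPA9, a ratio of 0.718 ± 0.0463. By coding length the ratios were 0.885, 0.739 and 1.26 for cytosol, ER and mitochondria, and with counts summed over records the mitochondrial ratio was 1.61. The mitochondrial ratio thus passed 1 under both, and which sum is higher there depends on the processing. Summing over records counts reads in shared exons more than once, and DNAJC19 has several records. Transcript ratios say nothing of protein amounts.

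The stress-inducible HSPA1A and HSPA1B stood at 102 ± 4.56 and 159.9 ± 4.44 TPM when the 5 copies of each on alternative haplotypes were summed, and at 22.5 ± 1.32 and 36.4 ± 1.48 TPM in the largest copy. HSPA6, which is transcribed under strong heat stress, was not detected (0.213 ± 0.062 TPM). Among J-domain genes outside the DNAJ names, GAK was detected, as were SEC63 of the ER translocon at 48.7 ± 3.15 TPM and HSCB, of iron-sulfur cluster assembly, at 14.0 ± 1.41 TPM.

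All 13 nucleotide exchange factors, which release ADP from HSP70, were detected. In the cytosol they included HSPA4 at 160.3 ± 5.58, BAG1 at 153 ± 2.75 and BAG3 at 149 ± 3.69 TPM, in the ER HYOU1 at 200.2 ± 6.68 TPM, and in mitochondria GRPEL1 at 46.9 ± 1.42 TPM. Of the 3 partners that pass substrates on or mark them for degradation, STIP1, the bridge to HSP90, had 414 ± 1.13 TPM and STUB1, a ubiquitin ligase, 124 ± 9.86 TPM. The 9 regulators of the heat shock and ER stress responses were all detected, with ATF4 at 272 ± 7.39, HSF1 at 91.7 ± 7.91, XBP1 at 89.9 ± 4.66 and DDIT3 at 22.5 ± 1.03 TPM.

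The replicate libraries were then compared for each gene, to ask which DNAJ genes varied between them by more than counting noise. For this, edgeR fitted 1 mean per gene to the counts divided by 2, because both mates of a pair appear to be counted. The deviance was tested against counting noise with Benjamini-Hochberg adjustment over 14521 genes. Odd counts also occurred (487 genes with 1 count and 274 with 3 in replicate 1), so the division only approximates a count of pairs. Of 37 members that passed the filter on low counts, 13 (35.1%) varied at an adjusted p under 0.05, beside 28.3% of all genes tested. The share of members was thus near that of all genes. The remaining 7 members were not tested.

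The differences were small. The highest over the lowest CPM was 1.06 to 1.27 in the 13 genes, and its median was 1.09 over the detected members and 1.101 over all detected genes. DNAJC8 had 137, 142 and 156 CPM in replicates 1, 2 and 3, a 1.14-fold range (edgeR, adjusted p = 4.29e-08). DNAJC7 had 120.4, 121 and 133 CPM, a 1.11-fold range (edgeR, adjusted p = 6.73e-05). In both, replicate 3 stood above the other libraries. DNAJA3 had 55.7, 55.7 and 48.2 CPM, a 1.16-fold range (edgeR, adjusted p = 0.000174), with replicate 3 below the others.

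All 4 genes of the ER lumen were among the 13, each highest in replicate 3, while 1 of 6 genes of the ER membrane was called. DNAJB11 had 93.8, 88.5 and 98.6 CPM (edgeR, adjusted p = 0.000675), DNAJC10 154, 154 and 167 CPM (adjusted p = 0.000384), and DNAJC3 83.4, 78.1 and 87.0 CPM (adjusted p = 0.00147). DNAJB9 had the widest range of the 13, with 10.1, 11.5 and 12.9 CPM (1.27-fold, edgeR, adjusted p = 0.0256). The HSP70 genes of the ER, HSPA5 and HSPA13, were called as well (edgeR, adjusted p = 0.00559 and 0.0089) and were also highest in replicate 3, at 522 and 56.3 TPM. These calls stand beside the 28.3% of all genes. With offsets for GC content and length DNAJB11 alone of the 4 lumenal genes was called, while the adjusted p was 0.957 for DNAJC10, 0.103 for DNAJC3 and 0.242 for DNAJB9 (edgeR). The other 6 called members were DNAJB14, DNAJC5, DNAJA1, DNAJC13, DNAJC11 and DNAJC2, with adjusted p from 0.00282 to 0.0453 (edgeR). By the same test, and beside the same 28.3%, the calls among the partners were 3 of 7 cytosolic HSP70 genes, 2 of 2 in the ER and 1 of 1 in mitochondria. Of the exchange factors, 5 of 9 cytosolic, 1 of 2 ER and 1 of 2 mitochondrial genes were called, as were 2 of 3 HSP70 partners (STUB1 and ST13) and 2 of 9 stress regulators (HSF1 and ATF4). These partner calls are those without offsets. The test calls smaller differences in genes with more counts, so the share of all genes is an unlike base for highly counted ones. HSPA8 was called with 1656, 1631 and 1615 CPM (edgeR, adjusted p = 0.00224). DNAJC22 was not called with a 1.35-fold range (edgeR, adjusted p = 0.157).

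The direction moved with base composition. The 10 called members that were highest in replicate 3 had transcripts of 33.4% to 48.6% GC, and the 3 that were lowest there (DNAJA3, DNAJC5 and DNAJC11) had 54.3% to 57.7% GC. Over the 35 detected members, Spearman's rho between GC content and deviation from the mean was 0.45, 0.25 and −0.53 in replicates 1, 2 and 3, and over 12644 genes 0.49, 0.30 and −0.62. These are correlations across genes, which share libraries and are not independent replicates. With offsets for the trends with GC content and length, 4 members were called (DNAJC7, DNAJC8, DNAJB11 and DNAJA3, edgeR, adjusted p = 0.00027, 0.000402, 0.000946 and 0.0137), beside 12.6% of all genes tested. Without replicate 3, 0 of 38 members tested were called, beside 8.71% of 14799 genes, and 7 members had an unadjusted p under 0.05 (edgeR).

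**Figure D4:**
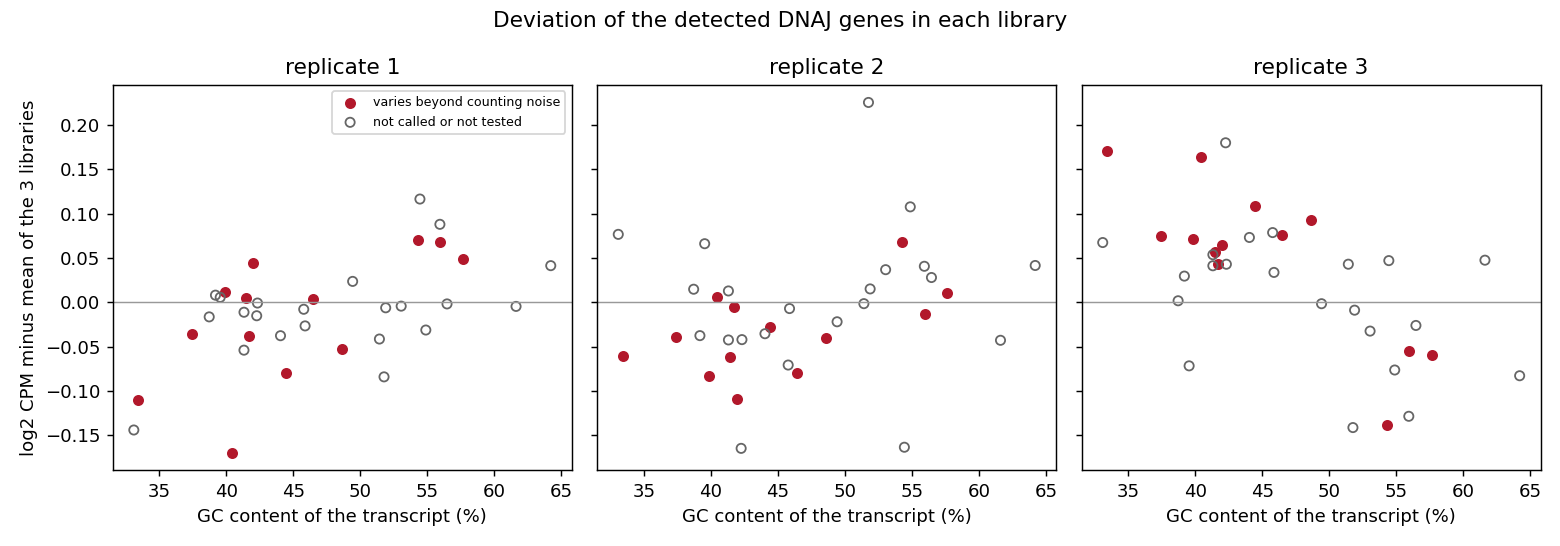
Deviation of log2 CPM from the mean of the 3 control siRNA libraries against GC content of the transcript, for the 35 detected DNAJ genes in each library; filled points are the 13 genes that varied beyond counting noise. In replicate 3 the called genes up to 48.6% GC lie above 0 and those from 54.3% GC lie below 0.

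How reads with several hits were counted and whether strand was used are not given in the sources used here. The RefSeq gene table lists 9 pseudogenes named for DNAJC19, 8 for DNAJB6, 6 for DNAJA1, 3 for DNAJC8 and 2 for DNAJB1, so the levels of these members are uncertain. In the GENCODE 29 annotation, 26 of the 44 members overlap a gene on the opposite strand, 15 of them a protein-coding one, among them DNAJB1 with TECR, DNAJC7 with CNP and NKIRAS2, DNAJB9 with PNPLA8 and THAP5, and DNAJC2 with PMPCB and PSMC2. On the same strand 16 members overlap another gene, among them DNAJC9 with MRPS16, DNAJB4 with GIPC2 and DNAJC4 with NUDT22, all protein-coding. Reads of such partners cannot be told apart here. In bulk RNA, fewer cells that express a gene and less RNA per cell cannot be told apart either.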

How the data were processed

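RNA of 3 control siRNA libraries was read as pairs of 100 bp from TruSeq RNA libraries, per the labels' protocols. The deposited values are unnormalized whole-number counts, 1 for each RefSeq transcript record. FastQC, TopHat2, Cufflinks and the build hg19 are named in the submitters' processing notes; tool versions, the counter and its strand setting are not given in the sources used here.

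Copies of a record on alternative haplotypes were summed, and a gene's count was its largest record. Of 6937 records without a symbol, 619 could not be matched by accession and were left out (0.952%, 0.959% and 0.944% of counts in replicates 1, 2 and 3). The gene totals were 68841718, 85103776 and 54655985, and counting error is thus small for all but the lowest genes. TPM used the GENCODE 29 length of the transcript matched to that record, with the version of the record ignored. Where the record had no match, the gene's longest transcript was used, a protein-coding one if present. By either way a length was found for 98.8% of genes with a count. CPM used TMM library sizes from edgeR 4.0.16 in R 4.3.3, and a gene was detected at 1 CPM or more in each library. The variation test halved the counts, set the dispersion to 0 and compared the deviance with a chi-square with 2 degrees of freedom, for genes past filterByExpr without groups. It was tested on simulated data. The common coefficient of variation, with counts divided by 2, was 0.0459. DESeq2 1.42.0 gave alternative size factors; pandas 2.3.3 and matplotlib 3.10.9 (Python 3.11.15) served for tables and plots.

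The rule that took the members by name, the compartments, the lists and the tests were set with earlier results of these data known. Values are given per library for the 3 highest and the lowest detected member of each class and compartment, for each member that varied and for class A. No set test or p for a class was computed. Some genes of the lists are not reported here. Alternatives covered the count of a gene, its length, the summary of a class, the pseudocount of 1, the detection minimum, normalization, filters and each library left out.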

Additional observations from a re-analysis of the deposited data

How the results depend on the processing

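With counts summed over records, the differences of medians on the log2 scale were 1.79 (class A minus B), 1.88 (A minus C), 0.081 (B minus C), −0.69 (ER minus cytosol) and 0.40 (mitochondria minus cytosol). In CPM they were 1.81, 1.40, −0.41, 0.76 and 1.26, and with the mean over members 1.12, 1.08, −0.043, 0.46 and 0.64. With the longest transcript A minus B was 2.31, B minus C −0.87, ER minus cytosol 0.70 and mitochondria minus cytosol 1.15. With coding length they were 1.38, 0.14, −0.046 and 1.04 in the same order, and over detected members alone 1.42, 0.032, −0.0896 and 0.52. The ratios of DNAJ to HSP70 in cytosol, ER and mitochondria were 0.491, 0.63 and 1.61 with summed records, 0.438, 0.43 and 0.662 with the longest transcript, and 0.885, 0.739 and 1.26 with coding length. In CPM the ER ratio was 0.591 and the mitochondrial one 0.476, and with the largest copy alone the cytosolic ratio was 0.581. Summed records count reads in shared exons more than once. The cause of these shifts was not tested. Detection changed little, with 36 members at 0.5 CPM and 32 at 5 CPM.

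The count of varying members was 21 with both mates counted as separate reads (7683 of all genes), 4 with GC and length offsets (1835 of all genes) and 0 with a coefficient of variation of 0.05 allowed (7 of all genes; 0 members at an unadjusted p under 0.05, edgeR). It was 13 with DESeq2 size factors (4131 of all genes, 28.4%). Without a filter it was 11 of 41 members tested, beside 3955 of 18809 genes (21.0%). Leaving out each library in turn gave 0 to 12 members and 1289 to 3092 of all genes, with both lowest counts without replicate 3. No paired analysis was possible because there is only 1 group. The 9 undetected members stayed under the detection minimum of 1 CPM in each library. Depth limits how precisely their levels are known, since these levels rest on at most 53 counts in a library.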

Other observations

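Records of antisense genes named for members were low. DNAJC9-AS1 had 29, 81 and 46 counts in replicates 1, 2 and 3 (0.738 ± 0.278 CPM), against 107 CPM for DNAJC9, and DNAJC27-AS1 had 9, 15 and 4 counts (0.127 ± 0.0521 CPM). DNAJC25, an ER membrane J-domain gene whose symbol is absent from the files, had 11.1, 10.5 and 13.5 CPM from its record under an accession alone, highest in replicate 3. The read-through gene DNAJC25-GNG10 had 3178, 4470 and 3033 counts under the symbol GNG10 and shares exons with both partners.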
